A study of Mus musculus with 7 samples.

Results

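The spliceosome and its splicing factors were examined in J558 myeloma tumours as a list of 42 genes: 3 genes of the U1 snRNP, 11 of the U2 snRNP and U2AF, 7 of the Sm core that all major snRNP but U6 carry, 9 of the tri-snRNP and the Prp19 complex, 11 SR and SR-like proteins and Rbbp6. Members were found by gene symbol in the annotation of the array. Of the 42, 38 had a probe, with 59 probes in all, out of 23978 probes of 14739 named genes on the array. No array signal of Snrpf, Snrpd2, Srsf7 or Prpf4 was analysed here.

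Pre-mRNA splicing removes introns from a primary transcript in steps that are carried out by the spliceosome, a set of small nuclear ribonucleoproteins (snRNP) that assemble on each intron. The U1 snRNP pairs with the 5′ splice site, U2AF and the U2 snRNP recognise the 3′ splice site and the branch point, and the U4/U6.U5 tri-snRNP then joins and is rearranged into the catalytic spliceosome with the help of the Prp19 complex. SR proteins, which carry a domain rich in arginine and serine, bind exons and help to select splice sites. J558 is an IgA-secreting plasma cell line, and plasma cells transcribe, splice and translate very large amounts of immunoglobulin mRNA.

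Tumour RNA was measured in 3 samples from mice given OPP (an aqueous extract of oil palm phenolics, 1500 ppm in gallic acid equivalents, taken freely as the drink) and in 4 control samples from mice given distilled water, with 1 Illumina MouseRef-8 array per sample. All mice were male BALB/c, recorded as 10 weeks old, ate the same chow and carried a tumour grown from J558 cells injected under the skin at the back of the neck. The tumours all descended from 1 established cell line placed in a host with its own immune system, muscle and fat, and RNA of the highest integrity had been picked for the arrays. The labels call the samples replicates without naming the mouse that each came from, and they name no slide or scan batch, so the p-values below reflect only how these samples spread.

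Signals are background-subtracted, rank-invariant normalised intensities as deposited, and a probe was tested where its signal exceeded the detection limit of the array (20.6 to 26.7) on every array of at least 1 group. This held for 50 probes of 35 splicing genes and for 10371 probes of 7191 genes in all. On each array 10653 to 11268 probes lay above the limit. Of the 50, 47 were above the limit on all 7 arrays, and the exceptions, Zmat2, Sf3b1 and Prpf31, passed only through the OPP arrays, which lay above the limit in 3 of 3 tumours. The only probes of Snrpb2 (a U2 snRNP protein), Snrpe (an Sm core protein) and Tra2a (an SR-like protein) lay below the rule, as did further probes of Prpf8, Tra2b, U2af2 and Rbbp6, and these 9 probes were not tested.

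The tumours carried the plasma cell genes that the J558 label implies. All 13 plasma cell markers with a probe were tested and 12 of them were above the limit on all 7 arrays, with a median log2 change of −0.03 and a summed signal of 79597 to 86400 in OPP tumours, against 75377 to 88027 in control tumours. Of 16 tested plasma cell probes, 1 passed an unadjusted p under 0.05, a probe of Sdc1 that was higher without overlap (log2 change 0.61). Of all tested probes, 5.81% were higher at that threshold and 5.91% higher without overlap. The other Sdc1 probe gave −0.08, and the lowest change of the list was −0.93 for Mzb1. The Mzb1 probe passed the filter only through the control arrays. Of 6 marker lists of other tissues, those of skeletal muscle and fat differed most often. All 15 tested probes of skeletal muscle markers were lower in OPP tumours without overlap (as were 3.79% of all tested probes), with a median log2 change of −3.82 and a summed signal of 103 to 6012 in OPP tumours, against 8302 to 37116 in control tumours. Only 2 of these muscle genes, Acta1 and Mylpf, were above the limit on all 7 arrays, with log2 changes of −4.52 and −3.83. The other muscle probes passed the filter only through the control arrays, so the count of 15 and the median were in part set by the filter. Ckm, the muscle creatine kinase gene, had −3.0, 100.4 and 18.7 in OPP tumours, against 119.0, 173.8, 423.0 and 803.3 in control tumours. Of 7 tested adipocyte probes, 5 passed an unadjusted p under 0.05 and were lower (as were 3.55% of all tested probes), with a summed signal of 847 to 1245 in OPP tumours, against 1137 to 4096 in control tumours. Among them, Pck1 passed the filter only through the control arrays. T and NK cell markers had a median log2 change of −1.49, and 0 of 9 probes passed an unadjusted p under 0.05. Their summed signal was 1313 to 3279 in OPP tumours and 1683 to 4908 in control tumours. The probes of Cd3d, Cd3e, Cd3g, Cd8b1 and Nkg7 and 1 of Klrk1 lay below the limit on OPP replicate 3. They passed the filter only through the control arrays, so this median is no support for a difference. Macrophage, fibroblast and endothelial markers had median log2 changes of −0.28, −0.13 and 0.12, and 0 of 8, 0 of 13 and 0 of 6 of their probes passed an unadjusted p under 0.05. In bulk tissue, fewer cells of a type and less RNA per cell cannot be told apart. The part of these admixed tissues in the values below was not tested.

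Splicing genes differed little between OPP and control tumours. The median log2 change over the 50 probes was 0.04, against 0.01 over all tested probes, and 29 probes lay above 0 and 21 below. Of the 50, 38 (76%) differed by less than 1.2-fold, against 76.7% of all tested probes. In limma, with Benjamini-Hochberg adjustment over all 10371 probes, 0 of 50 splicing probes passed an adjusted p under 0.05, as did 0.0% of all probes. The methods' t-test, which the study names for its other measurements, also gave 0 after adjustment.

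At an unadjusted p under 0.05, 5 of the 50 probes (10%) were higher in OPP tumours, against 5.81% of all tested probes, and 1 (2%) was lower, against 3.55% as above. The higher probes were those of Zmat2, Srsf2 (its dimmer probe), Snrpa, Srsf10 and Prpf3, and the lower one was that of Rbbp6. Groups did not overlap for 6 probes that were higher in OPP tumours (12%, against 5.91% of all tested probes) and for 3 that were lower (6%, against the 3.79% above). These 9 probes belong to Zmat2, Srsf2 (both probes, in opposite directions), Snrpa (a pair of probes), Tra2b, Sf3b4, Rbbp6 and U2af1. Zmat2 was tested only because its OPP signals passed the detection limit, and Zmat2 and Rbbp6 were known to be among the probes with the smallest p when the list was made. Without them, an unadjusted p under 0.05 was reached by 4 of 48 probes in the higher direction and by 0 in the lower, and 5 were higher and 2 lower without overlap.

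These counts are small and moved with single arrays. The 5 higher probes became 3 without control replicate 2, without control replicate 3 or without OPP replicate 2, and 2 without OPP replicate 3. The share of all tested probes that were higher at an unadjusted p under 0.05 was then 4.45%, 5.35%, 5.36% and 4.61%. The 1 lower probe became 3 without OPP replicate 2, where 3.3% of all tested probes were lower. The 3 lower probes without overlap became 6 without OPP replicate 2 and 5 without control replicate 1. Over all tested probes, the share lower without overlap was then 7.32% and 10.5%. The median log2 change of 0.04 became 0.01 without control replicate 1 or control replicate 3, 0.02 without control replicate 4 or OPP replicate 3, and 0.06 without OPP replicate 2.

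**Figure D1:**
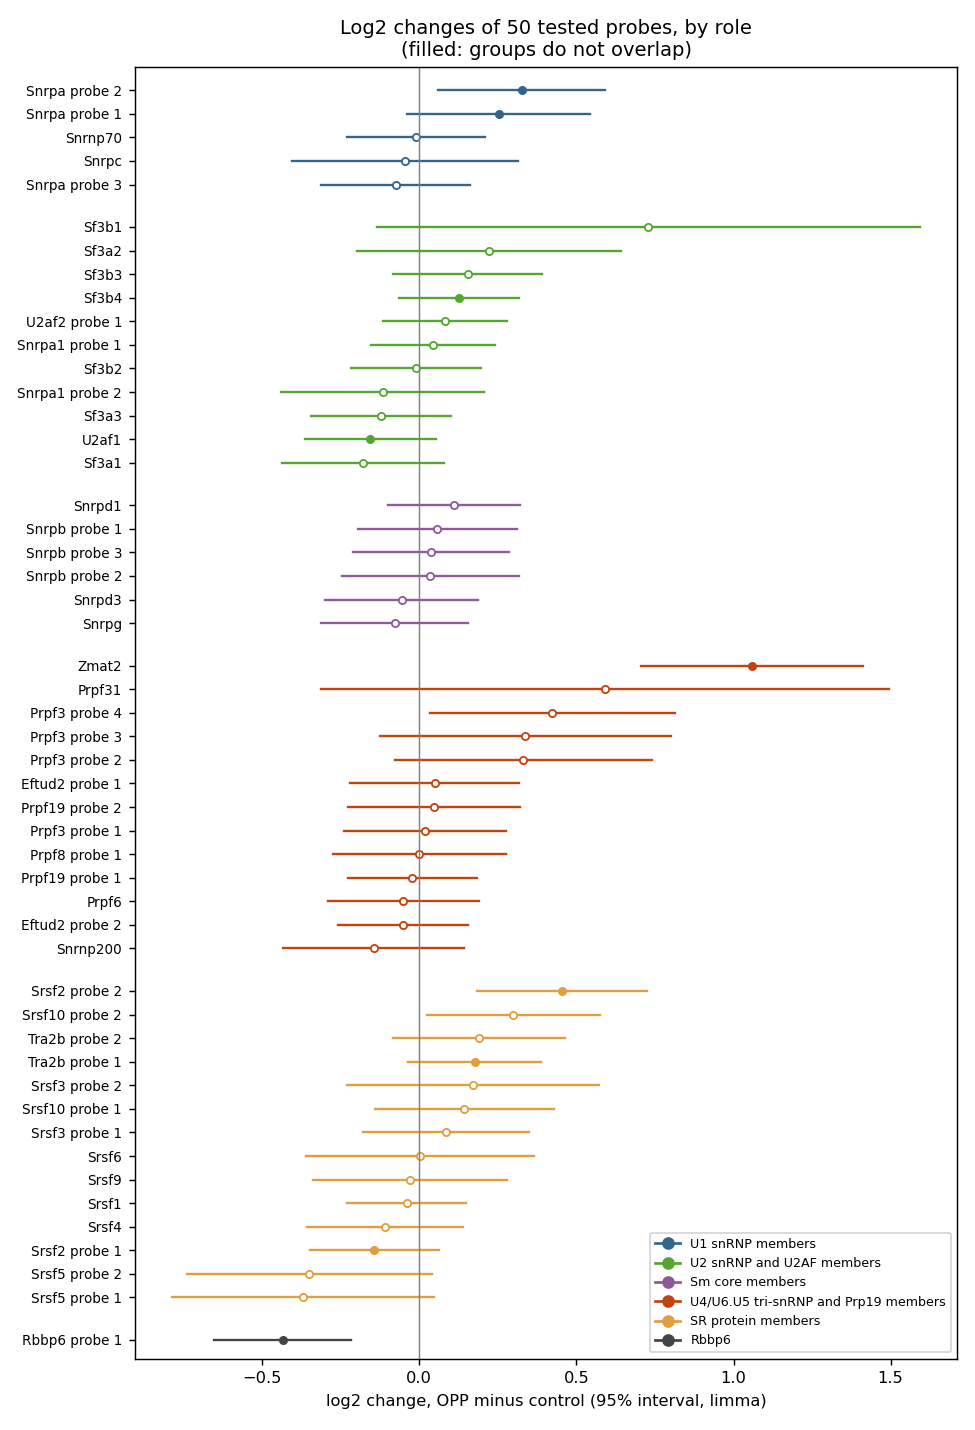
Log2 change (OPP minus control, x axis) of the 50 tested splicing probes with its 95% interval from limma, 1 probe per line, grouped and coloured by role. Filled points mark the 9 probes whose OPP and control signals do not overlap. For 38 of the 50 the change is under 1.2-fold, Rbbp6 (−0.43) lies at the lower end, and the point of Zmat2 rests on control signals below the detection limit.

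The intervals show what changes remain possible. For 38 of the 50 probes (76%) the whole 95% interval lay within a 1.5-fold change in either direction, against 65.7% of all tested probes. The median SD of log2 signals over the 7 arrays was 0.13 for splicing probes, against 0.20 over all tested probes. Among probes above the limit on all 7 arrays the interval shares were 80.9% of 47 splicing probes and 70% of 9692 probes.

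The sequence just before the transcription start is shown for genes whose groups did not overlap, so that what their promoters share can be read. Each is the 150 bases upstream of the first start listed by RefSeq for GRCm38.p6, read 5′ to 3′ on the strand of the gene, and capitals mark matches of 5 motifs searched on both strands: CCAAT, the E-box CACGTG that Myc and Max bind, the ETS site CCGGAAG, the GC box GGGCGG and the TATA box TATAAA. Sf3b4 and Zmat2 are named only.
Snrpa (chr7:27196272-27196421, minus strand): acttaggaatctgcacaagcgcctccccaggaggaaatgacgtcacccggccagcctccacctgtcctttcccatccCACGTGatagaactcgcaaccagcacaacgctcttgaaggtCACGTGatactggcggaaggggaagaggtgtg
U2af1 (chr17:31658765-31658914, minus strand): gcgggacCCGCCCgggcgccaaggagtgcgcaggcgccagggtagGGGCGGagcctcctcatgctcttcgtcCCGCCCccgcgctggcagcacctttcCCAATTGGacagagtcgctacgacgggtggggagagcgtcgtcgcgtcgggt
Srsf2 (chr11:116853095-116853244, minus strand): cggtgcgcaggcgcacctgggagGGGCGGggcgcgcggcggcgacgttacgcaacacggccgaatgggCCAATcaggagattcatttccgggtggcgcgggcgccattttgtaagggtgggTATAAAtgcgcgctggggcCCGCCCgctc
Tra2b (chr16:22266006-22266155, minus strand): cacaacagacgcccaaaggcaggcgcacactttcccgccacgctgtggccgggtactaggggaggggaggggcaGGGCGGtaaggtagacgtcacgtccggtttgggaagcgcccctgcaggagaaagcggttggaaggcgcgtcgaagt
Rbbp6 (chr7:122970414-122970563, plus strand): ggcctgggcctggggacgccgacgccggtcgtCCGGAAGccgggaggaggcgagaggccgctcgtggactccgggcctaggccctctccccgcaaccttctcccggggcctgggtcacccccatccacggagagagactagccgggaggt

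No motif occurs in all 5 promoters: of these, Snrpa alone holds the E-box, Rbbp6 alone the ETS site, and Srsf2, Tra2b and U2af1 hold a GC box. In U2af1 the letters CCAATTGG are overlapping matches of CCAAT on both strands. Of the 42 genes, 36 had a promoter in the table, which holds 27020 genes in all. The ETS site was present in 11 of the 36 (30.6%), against 5.68% of all promoters, and the GC box in 18 (50%), against 29.0%. CCAAT was present in 30.6%, against 25.3%, the TATA box in 8.33%, against 8.08%, and the E-box in 2.78%, against 4.3%. The median share of G and C was 61.3% in splicing promoters, against 54.0% in all promoters. The 27020 promoters were not limited to tested genes, and no comparison with promoters of a like share of G and C was made. A match of letters is a description and not a bound site.

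Among the U1 snRNP genes, Snrpa (which encodes the A protein of this particle, bound directly to U1 snRNA) was measured by 3 probes that did not behave alike. Probes are numbered here from the brightest to the dimmest within a gene, and signals of different probes are not compared. Snrpa probe 1 had 777.1, 853.0 and 844.8 in OPP tumours, against 724.0, 565.2, 754.1 and 742.7 in control tumours. Probe 2 had 738.2, 850.7 and 833.0 in OPP tumours, against 655.5, 551.7, 688.9 and 685.2 in control tumours. For both probes the lowest OPP signal exceeded the highest control signal, with control replicate 2 the lowest of all arrays. The log2 changes were 0.25 ± 0.12 (SE) and 0.33 ± 0.11, with adjusted p = 0.571 and 0.478 in limma and an exact permutation p = 0.0571 for each, the smallest that 35 splits of 7 arrays allow in a two-sided test.

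Snrpa probe 3 had 689.1, 680.3 and 638.5 in OPP tumours, against 715.8, 658.8, 658.0 and 795.1 in control tumours. Its groups overlapped, and its log2 change was −0.08 (adjusted p = 0.828). All 3 probes are annotated to the same RefSeq transcript. The log2 ratio of probe 2 to probe 3 was higher by 0.40 ± 0.13 (SE) in OPP tumours without overlap (unadjusted p = 0.0123, adjusted p = 0.264 in limma over 2083 pairs of probes of 1 gene), and that of probe 1 to probe 3 by 0.33 ± 0.13 (adjusted p = 0.316). The other U1 genes, Snrnp70 (the U1-70K protein) and Snrpc (the C protein of U1), had log2 changes of −0.01 and −0.05, with adjusted p = 0.975 and 0.938.

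**Figure D2:**
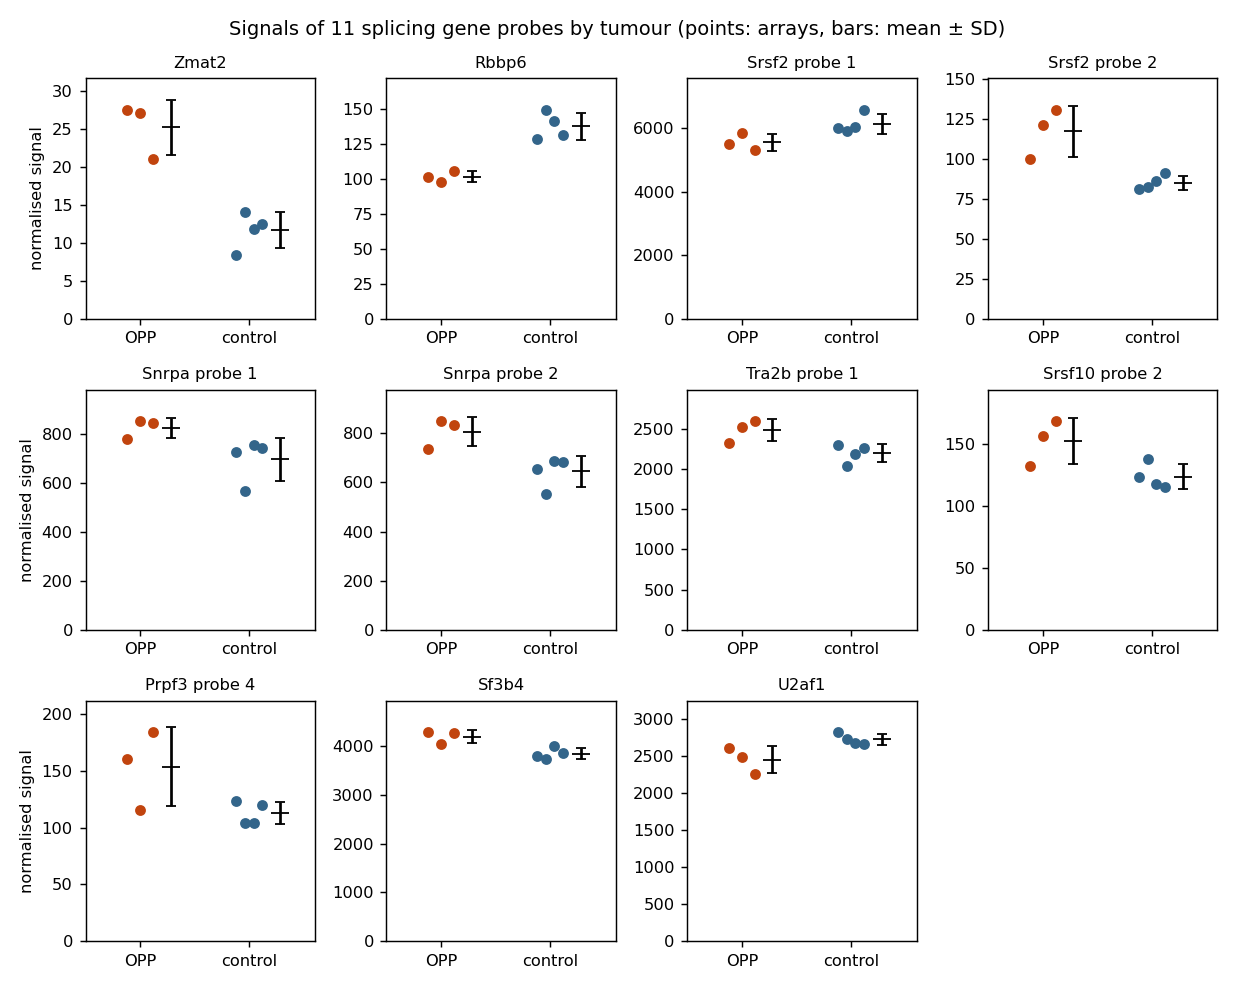
Normalised signal (y axis, linear, from 0) of the 11 probes with an unadjusted p under 0.05 or with groups that do not overlap, in 3 OPP tumours (left, orange) and 4 control tumours (right, blue). Each point is 1 array and the bars are the mean ± SD of the group; the 4 control points of Zmat2 lie below the detection limit, the groups of Rbbp6 are clearly apart, and the OPP and control points of Srsf10 probe 2 and Prpf3 probe 4 overlap.

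Of the U2 snRNP and U2AF genes, 10 were tested with 11 probes, 0 of which passed an unadjusted p under 0.05. Groups did not overlap for 1 higher and 1 lower probe, where 5.91% and 3.79% of all tested probes did so. Sf3b4, a subunit of the SF3B complex that contacts pre-mRNA near the branch point, had 4291.3, 4045.4 and 4261.5 in OPP tumours, against 3790.7, 3737.8, 3996.2 and 3863.7 in control tumours. The gap was narrow, and the log2 change was 0.13 ± 0.08 (SE, adjusted p = 0.655, 95% fold interval 0.957 to 1.25). U2af1, which encodes the U2AF subunit that reads the AG at the 3′ splice site, had 2610.9, 2484.6 and 2249.5 in OPP tumours, against 2821.1, 2725.8, 2679.2 and 2662.9 in control tumours. Here every OPP signal lay below every control signal, with a log2 change of −0.16 ± 0.09 (adjusted p = 0.622, 95% fold interval 0.777 to 1.04). U2af2, whose protein binds the polypyrimidine tract as the partner of U2af1, had a log2 change of 0.08 (adjusted p = 0.781).

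Sf3b1, the SF3B subunit that clamps the branch point helix, had the largest log2 change of the U2 genes and also a wide spread. It had 44.5, 67.5 and 45.8 in OPP tumours, against 19.0, 22.7, 40.7 and 53.6 in control tumours, where replicate 1 was not above the limit. The groups overlapped, and the log2 change of 0.73 ± 0.37 (SE) had an adjusted p = 0.577 and a 95% fold interval of 0.91 to 3.02. With a floor of 50 in place of 10 it was 0.12. The other SF3 subunits had log2 changes of −0.18 for Sf3a1, −0.12 for Sf3a3, −0.01 for Sf3b2, 0.15 for Sf3b3 and 0.22 for Sf3a2, and Snrpa1, which encodes a U2 protein with leucine-rich repeats, had 0.04 and −0.12 by its 2 tested probes.

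The Sm core genes, whose proteins form the ring that holds snRNA, had 0 of 6 tested probes past an unadjusted p under 0.05 or without overlap. Snrpd1 had the smallest p of this group, with 3258.4, 2941.4 and 3156.4 in OPP tumours, against 2841.0, 2867.5, 2746.9 and 3098.6 in control tumours. Its groups overlapped by the second OPP and the fourth control array, and the log2 change was 0.11 ± 0.09 (SE, adjusted p = 0.721). Snrpg, named for the highest signal among the tested splicing probes, had 10109.5, 10342.4 and 9392.5 in OPP tumours, against 9527.8, 11079.9, 11386.5 and 10089.5 in control tumours. Its log2 change was −0.08 ± 0.10 (adjusted p = 0.817, 95% fold interval 0.806 to 1.11). The 3 probes of Snrpb, the gene of the SmB proteins, gave log2 changes of 0.06, 0.04 and 0.04, and Snrpd3 gave −0.06.

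Among the tri-snRNP and Prp19 genes, Zmat2 was above background in OPP tumours alone, at signals close to the limit. Its protein is the homologue of the yeast tri-snRNP protein Snu23. It had 27.5, 27.1 and 21.0 in OPP tumours, against 8.4, 14.1, 11.8 and 12.5 in control tumours, a mean of 25.2 ± 3.64 in OPP and 11.7 ± 2.40 in control (SD). All 3 OPP arrays were above the detection limit and 0 of 4 control arrays were, so only a bound can be given. Set against the control arrays' detection limits, the OPP signals gave a bound on the means of at least 1.17-fold. It does not hold array by array, since OPP replicate 3 lay below the limits of control replicates 3 and 4 (21.7 and 22.2). The adjusted p in limma was 0.178. Since Zmat2 entered the test only through its OPP arrays, neither this p nor the bound is support for a difference. OPP replicates 2 and 3 lay just above their limits of 26.7 and 21.0.

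Prpf3, a U4/U6 snRNP protein, was measured by 4 probes annotated to 1 RefSeq transcript. Probe 4 had 160.8, 115.8 and 184.2 in OPP tumours, against 123.0, 104.3, 104.1 and 119.9 in control tumours, and probe 1 had 1447.4, 1304.9 and 1334.8 in OPP tumours, against 1316.5, 1405.6, 1174.6 and 1500.4 in control tumours. The log2 change was 0.42 ± 0.17 (SE, unadjusted p = 0.0372, adjusted p = 0.503) for probe 4, 0.33 and 0.34 for probes 2 and 3 (adjusted p = 0.591 and 0.629), and 0.02 for probe 1 (adjusted p = 0.965). For probes 2, 3 and 4 the highest array was OPP replicate 3, and the groups overlapped for all 4 probes. The log2 ratio of probe 1 to probe 4 was lower by 0.40 in OPP tumours (difference −0.40 ± 0.17, unadjusted p = 0.0399, adjusted p = 0.323).

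The remaining tri-snRNP genes encode much of the catalytic machinery, and none of their 8 tested probes passed an unadjusted p under 0.05. Prpf8, the scaffold of the active site, had a log2 change of 0.00 (95% fold interval 0.826 to 1.21) and Snrnp200, the helicase that unwinds U4 from U6, had −0.15. Eftud2, the U5 GTPase, had 0.05 and −0.05 by its 2 tested probes, and the ubiquitin ligase gene Prpf19 had −0.02 and 0.05. Prpf6, which bridges U5 and U4/U6, had −0.05. Prpf31, another U4/U6 protein, had 23.8, 31.2 and 23.5 in OPP tumours, against 33.9, 13.1, 7.8 and 19.8 in control tumours, with 1 of 4 control arrays above the limit. Its log2 change was 0.59 with a 95% fold interval of 0.805 to 2.82.

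In the SR protein group, Srsf2 gave opposite answers by its 2 probes. Srsf2 (SC35) binds exonic enhancers, and both of its probes are annotated to 1 RefSeq transcript. Probe 1 had 5498.6, 5832.8 and 5309.0 in OPP tumours, against 5996.5, 5904.5, 6023.4 and 6574.9 in control tumours. Probe 2 had 99.9, 121.2 and 130.9 in OPP tumours, against 81.0, 82.5, 86.3 and 91.0 in control tumours. The groups overlapped for neither probe: all OPP signals were the lower ones by probe 1 and the higher ones by probe 2.

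The log2 change of Srsf2 was −0.14 ± 0.09 (SE, adjusted p = 0.641) by probe 1 and 0.45 ± 0.12 (unadjusted p = 0.00499, adjusted p = 0.347) by probe 2, with an exact permutation p = 0.0571 for each. The log2 ratio of probe 1 to probe 2 differed by −0.60 ± 0.12 (SE) between OPP and control tumours, again without overlap (unadjusted p = 0.00127, adjusted p = 0.220, exact permutation p = 0.0571). Over the 11 splicing genes with several tested probes, 4 of 20 pairs of probes (20%), of Srsf2, Snrpa and Prpf3, differed at an unadjusted p under 0.05, against 15.0% of 2083 pairs over all genes, and 0 passed after adjustment. This comparison of probes was added after the probes of Srsf2 and Snrpa were seen to differ. The other 16 pairs differed by −0.32 to 0.16 in log2 change.

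**Figure D3:**
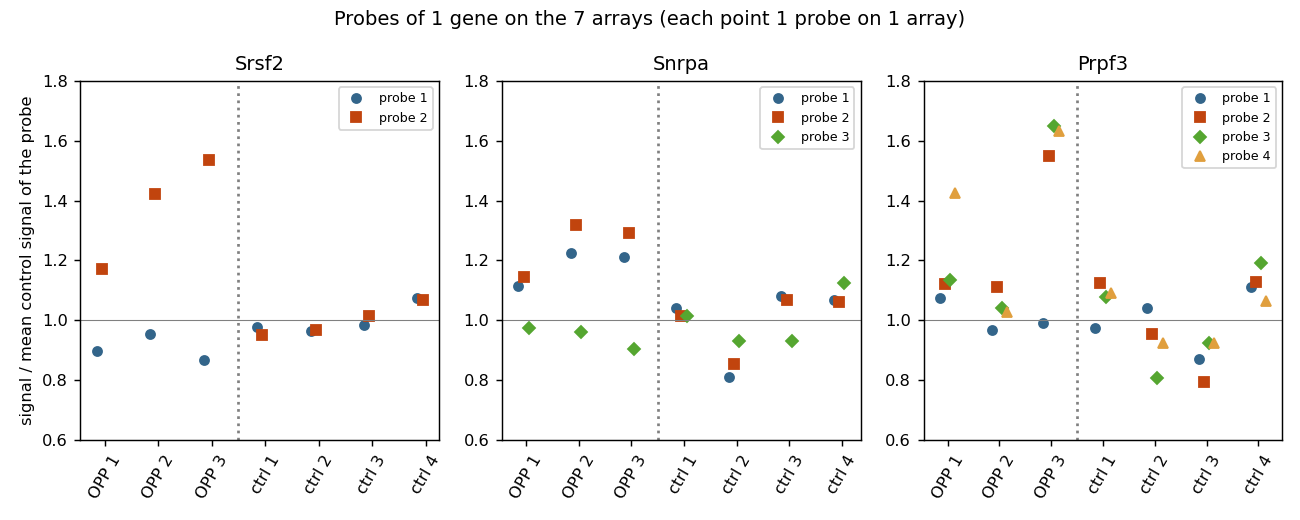
Signal of each tested probe of Srsf2, Snrpa and Prpf3 divided by the mean control signal of that probe (y axis, ratio) on the 3 OPP arrays (left of the dotted line) and the 4 control arrays (right); each point is 1 probe on 1 array. Srsf2 probe 2 lies above 1 and probe 1 below 1 on every OPP array, Snrpa probe 3 lies below 1 on the OPP arrays where probes 1 and 2 lie above, and the 3 dimmer Prpf3 probes are highest on OPP replicate 3.

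Of the other SR genes, Srsf10 had a probe past an unadjusted p under 0.05 and Tra2b a probe without overlap. Srsf10, an SR-like protein that represses splicing when it is dephosphorylated, had 132.2, 156.5 and 168.5 by probe 2 in OPP tumours, against 123.1, 137.8, 117.8 and 115.5 in control tumours. The first OPP array lay below the second control array, and the log2 change was 0.30 ± 0.12 (SE, unadjusted p = 0.0366, adjusted p = 0.503), with 0.14 by probe 1 (adjusted p = 0.732). Tra2b, which binds exonic enhancers rich in GAA, had 2326.8, 2520.3 and 2595.8 by probe 1 in OPP tumours, against 2297.8, 2039.2, 2183.4 and 2264.5 in control tumours. These groups did not overlap, while those of probe 2 did. The log2 changes were alike: 0.18 ± 0.09 (adjusted p = 0.580) by probe 1 and 0.19 ± 0.12 (adjusted p = 0.643) by probe 2.

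The lowest log2 changes of the SR genes were those of Srsf5, −0.37 and −0.35 by its 2 probes, with adjusted p = 0.559 and 0.556. Srsf5 probe 1 had 1299.7, 1577.4 and 975.7 in OPP tumours, against 1417.6, 1867.9, 1536.2 and 1727.3 in control tumours. OPP replicate 3 was the lowest array by both probes and the groups overlapped. Srsf1, the SR protein that recruits U1 to 5′ splice sites, had a log2 change of −0.04, Srsf4 −0.11, Srsf6 0.00 and Srsf9 −0.03, and the 2 probes of Srsf3 gave 0.08 and 0.17. Srsf6 and Srsf9 varied among the OPP tumours, with replicate 1 the lowest array for each.

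Rbbp6, a RING finger ubiquitin ligase that binds the retinoblastoma protein and p53 and takes part in cleavage of mRNA 3′ ends, had the largest negative log2 change of the 50 probes. It had 101.4, 97.3 and 105.8 in OPP tumours, against 128.3, 149.2, 141.1 and 130.9 in control tumours, a mean of 101.5 ± 4.25 in OPP and 137.4 ± 9.63 in control (SD). Every OPP signal lay well below every control signal. The log2 change was −0.43 ± 0.09 (SE, 95% fold interval 0.636 to 0.861), with an unadjusted p of 0.00196 and an adjusted p = 0.335 in limma and an exact permutation p = 0.0571. Since Rbbp6 was known to be among the probes with the smallest p when the list was made, these p-values are no support for a difference. A pair of further Rbbp6 probes, annotated to another transcript than the tested one, lay below the limit on all 7 arrays.

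The splicing probes were also summarised by array. Each probe's log2 signal was centred on its mean over the 7 arrays, and the median over the 50 probes was 0.021, 0.014 and 0.081 on the OPP arrays, against −0.019, 0.010, −0.012 and −0.021 on the control arrays. All 3 OPP values exceeded all 4 control values, narrowly for OPP replicate 2 (0.014) over control replicate 2 (0.010). OPP replicate 3 was the highest, by a margin above the pooled SD of 0.026. The 50 probes include Zmat2, Sf3b1 and Prpf31, which passed the filter only through the OPP arrays, so this order is no support for a difference. Over the 47 splicing probes above the limit on all 7 arrays, the median log2 change was 0.02, with 26 above 0 and 21 below. With 1 value per gene, the brightest probe or the mean of its probes, the median log2 change over 35 genes was 0.00 either way. Over all tested probes the medians were 0.01, 0.02 and 0.01 on the OPP arrays, against −0.04, 0.03, 0.00 and 0.01 on the control arrays. The role groups did not share 1 order of arrays: OPP replicate 3 was the highest array for the U1, tri-snRNP and SR groups, while control replicate 3 was the highest for the U2 group and OPP replicate 1 for the Sm core.

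**Figure D4:**
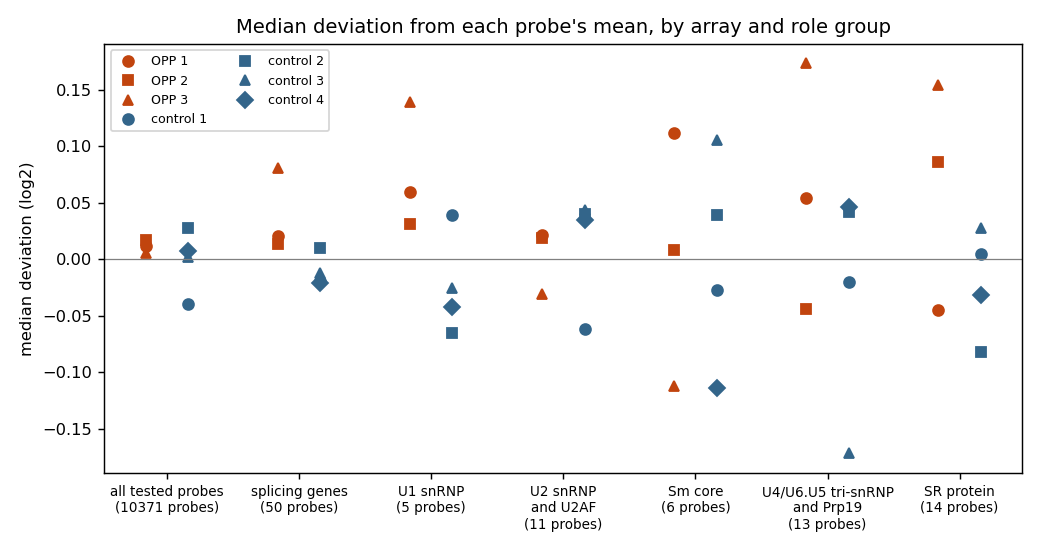
Median over probes of the deviation of the log2 signal from each probe's mean (y axis) for each of the 7 arrays, over all tested probes, over the 50 splicing probes and by role group (x axis, number of probes in brackets); orange points are OPP arrays and blue points control arrays. Over the 50 splicing probes the OPP arrays lie between 0.014 and 0.081 and the control arrays between −0.021 and 0.010, and the order of arrays differs from group to group.

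Other genes of splicing and mRNA processing were examined from 8 further lists of 160 genes, of which 121 were tested with 165 probes. Their median log2 change was 0.00, and 0 passed an adjusted p under 0.05 in limma. At an unadjusted p under 0.05, 7 of the 165 probes were higher and 4 lower (5.81% and 3.55% of all tested probes were), and without overlap 8 were higher and 9 lower (5.91% and 3.79% of all tested probes were). No list had more than 2 probes past that p in either direction. These lists were chosen with earlier results of these data known, so the counts and p-values of their genes are no support for a difference.

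The smallest p of these lists was that of Cpsf4, a cleavage and polyadenylation factor that reads the polyadenylation signal. Cpsf4 had 81.8, 81.2 and 74.0 in OPP tumours, against 51.9, 58.8, 49.4 and 59.2 in control tumours, with a log2 change of 0.53 ± 0.10 (SE, unadjusted p = 0.00114, adjusted p = 0.275). Among those higher without overlap were also Slu7, a factor of the second catalytic step (0.49, adjusted p = 0.418), Clns1a, a chaperone of Sm proteins (0.39, adjusted p = 0.465), Sart1, a tri-snRNP protein (0.43, adjusted p = 0.516), and Hnrnpm, an hnRNP that regulates exon choice (0.54, adjusted p = 0.485). Txnl4a, a U5 protein, had a log2 change of 0.51 with overlap of the groups (adjusted p = 0.503). Several of these genes have further tested probes, which gave smaller changes: 0.14 for Clns1a, −0.04 for Hnrnpm, and 0.10 and 0.05 for Txnl4a (adjusted p = 0.703, 0.905, 0.852 and 0.935), all with overlap of the groups.

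Among those lower without overlap were the RNA-binding protein genes Hnrnpdl (−0.75, adjusted p = 0.335) and Nono (−0.22, adjusted p = 0.514), and the genes Isy1 (−0.32, adjusted p = 0.478) and Bcas2 (−0.23, adjusted p = 0.485) of the Prp19 complex and the catalytic step. Hnrnpdl had 23.7, 36.6 and 29.1 in OPP tumours, against 45.1, 54.3, 45.4 and 54.0 in control tumours by this probe. These OPP signals were close to the detection limits of 21.1, 26.7 and 21.0 on OPP replicates 1, 2 and 3. The other tested Hnrnpdl probe gave −0.39 with overlap of the groups (adjusted p = 0.670 in limma). Bcas2, a core subunit of the Prp19 complex, was a bright probe with 4247.6, 4292.5 and 4083.4 in OPP tumours, against 4642.5, 5163.0, 4954.6 and 4998.8 in control tumours. Its groups were well apart, while those of Prpf19 itself overlapped by both probes.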

How the data were processed

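Tumour RNA of 3 OPP and 4 control samples was measured on 7 arrays, 1 per sample. The deposited values are linear intensities, which the authors extracted in BeadStudio 1.5.1.3 (version from the submitters' processing notes). They had removed outlier samples by clustering, subtracted the background and applied rank invariant normalisation. A second table, of signals before normalisation, was not used, since none of its 14 column names could be tied to a sample. The table lists 24048 probes. Left out were 66 that carry no value and 4 control probes. The platform annotation gave 19343 probes 1 gene symbol and 4639 none. Noise SD was estimated on each array from values below 0, and the detection limit was 2.3263 times it, a one-sided level of 0.99. Values under 10 were set to 10 and log2 was taken. OPP was set against control with limma 3.58.1 in R 4.3.3 (lmFit, then eBayes, two-sided, Benjamini-Hochberg over all tested probes), with an exact permutation test over 35 splits for single genes, and the number of arrays limits the precision. Where arrays of a group were all below the limit, the bound sets each array's detection limit (or its own signal, if higher) against the other group's mean. The script was tested on simulated data with 200 changed probes. Named with their values in every sample are probes with an unadjusted p under 0.05 or no overlap, the brightest and dimmest tested members and the smallest p of each role group; of other lists, up to 3 probes with an unadjusted p under 0.05. Members and lists were chosen with earlier results of these data known. For the arrays the study itself used the Illumina custom error model, which was not run here. Alternatives were quantile normalisation, median scaling, floors of 50 and 5, detection on all 7 arrays, no detection filter, a trended robust prior, array weights, the methods' t-test, a replicate block, 1 value per gene and leaving out arrays. Promoters came from RefSeq GRCm38.p6. Tables were handled in Python 3.11.15 with pandas 2.3.3.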

Additional observations from a re-analysis of the deposited data

Results flagged for a closer look

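Within the control group, Snrpa probe 1 had 1 array far from the others: control replicate 2 had a signal of 565.2, against 724.0, 754.1 and 742.7 on the other control arrays. Such a gap arises by chance in about 1 of 20 groups of this size, and 50 splicing probes were tested. Others had a like gap. For Snrpb probe 1, control replicate 4 had 4245.9, against 4894.6, 5004.4 and 4943.5 on the other control arrays. A pair of probes that were not tested lay above the detection limit on OPP replicate 3 and above every control array, with a limit of 21.0 on that array. Prpf8 probe 2 had 29.4 there, against 1.5 and 6.3 on the other OPP arrays and at most 20.2 on the control arrays. Snrpb2 had 23.2 there, against 4.9 and −4.9 on the other OPP arrays and at most 4.2 on the control arrays.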

How the results depend on the processing

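The count of splicing probes past an adjusted p under 0.05 stayed at 0 in all 20 alternatives. The 5 probes higher at an unadjusted p under 0.05 became 1 with the brightest probe per gene and 1 with the mean of a gene's probes (35 values each). They became 3 without control replicate 1 and OPP replicate 3 together (an alternative chosen after seeing the data) and 2 to 5 without single arrays. The share over all probes was 4.91%, 5.19% and 4.12% in these settings, and 4.45% to 6.31% without single arrays. The 1 lower probe became 3 with a floor of 50, with no detection filter, with a trended robust prior and with the methods' t-test. It became 2 with a gene's probes averaged, and 1 to 3 without single arrays. In that order, the share over all probes was 3.72%, 1.98%, 3.9%, 3.37% and 3.61%, and 2.49% to 7% without single arrays. Without overlap, the 6 higher probes became 2 with a gene's probes averaged, and 6 to 9 without single arrays. Of all probes, 5.49% and 7.91% to 12.3% were then higher without overlap. The 3 lower became 6 without control replicate 1 and OPP replicate 3 together and 3 to 6 without single arrays. Of all probes, 14.8% and 4.79% to 10.5% were then lower without overlap. The median log2 change of 0.036 became 0.000218 with the brightest probe and with a gene's probes averaged, and 0.00856 to 0.0566 without single arrays. Srsf2 probe 1 changed sign to 0.16 (adjusted p = 0.645) once averaged with probe 2. The other 272 of 273 values of named probes kept their sign and stayed above an adjusted p of 0.05, while 43 crossed an unadjusted p of 0.05. Without single arrays the unadjusted p ranged from 0.00275 to 0.136 for Prpf3 probe 4, from 0.0204 to 0.0777 for Snrpa probe 2, from 0.0125 to 0.124 for Srsf10 probe 2 and from 0.018 to 0.251 for Sf3b1. The adjusted p ranged over the alternatives from 0.0979 to 0.696 for Zmat2 and from 0.178 to 0.696 for Rbbp6. With a floor of 50 Zmat2 has no value, since all of its signals lie under it. Settings with 1 value per gene or fewer arrays hold fewer values, and the cause of the other shifts was not tested. Replicate numbers did not pair the samples (correlations of deviations of −0.27, 0.08 and −0.16). With a replicate block, an unadjusted p under 0.05 was reached by 4 higher probes and 1 lower probe (4.24% and 2.35% of all tested probes). An adjusted p under 0.05 was reached by 0, and the median was 0.02. Over all probes, 545 were higher and 742 lower without control replicate 1, against 603 and 368 with it. Of the tested splicing probes, Prpf31 and Sf3b1, near the detection limit, had the widest SE (0.39 and 0.37 on the log2 scale).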
